A study of Homo sapiens with 16 samples.

Results

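Replicate 2 of the shAjuba2, Control and AjubaOE lines was examined as a group of 3 libraries among the 16 of the series, each set against replicates 1 and 3 of its own line. The 3 libraries were chosen for their values. On the first principal component of log-transformed, depth-scaled counts, which held 34% of the variance, replicate 2 scored -32.5 in shAjuba2, -6.62 in Control and 12.1 in AjubaOE. The scores of replicates 1 and 3 were -16.1 and -11.9 in shAjuba2, 14.3 and 7.63 in Control and 30.2 and 27.9 in AjubaOE. Everything read from the contrast of replicate 2 with its own line is therefore given as a description and not as a test.

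All libraries were polyadenylated RNA of SW480, a human colon adenocarcinoma line, and the study asked how the scaffold protein Ajuba alters its transcriptome. The shAjuba2 cells carried a lentiviral shRNA against a non-coding stretch of the Ajuba transcript. The AjubaOE cells carried a lentiviral CMV construct expressing FLAG- and HA-tagged Ajuba, and the Control cells carried the same construct after removal of the exogenous Ajuba sequence. The remaining lines were unmodified Parental cells (n = 2), shScrambled cells with a scrambled, non-mammalian control shRNA (n = 2) and shAjuba1 cells with an shRNA against the coding region (n = 3). The transduced cells were kept as stable lines under puromycin, and because the study describes its replicates as technical, p-values measure only the spread between libraries.

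Messenger RNAs of ribosomal proteins are short, abundant, spliced and long-lived, and they are translated in the cytoplasm. Transcripts such as NEAT1 and MALAT1 stay in the nucleus, where NEAT1 builds paraspeckles and MALAT1 gathers in nuclear speckles. Mitochondrial mRNAs are made from the mitochondrial genome without introns and never enter the cytosol, so the balance of these groups describes which compartments and which kinds of RNA a library holds.

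The libraries held between 30132396 and 69684675 counts, and the 3 replicate 2 libraries, with 44394246 in shAjuba2, 49021568 in Control and 47996080 in AjubaOE, lay inside that range. With all libraries thinned to the same depth, the numbers of genes with a count in the 3 libraries (32542, 32671 and 31116) also lay inside the range of the others (30683 to 32726). Replicates of 1 line differed more when the pair held one of the 3 libraries. The median chi-square distance relative to counting noise was 6.32 to 14.3 in those pairs, and it was 4.39 to 5.18 between replicates 1 and 3 of the same lines. In the other lines the pairs gave 1.87 to 5.89. AJUBA, the targeted gene, followed the labels in every library (47.0 to 52.8 normalised counts-per-million, CPM, in shAjuba1, 54.7 to 68.1 in shAjuba2, 81.1 to 99.8 in Parental, shScrambled and Control, 492 to 595 in AjubaOE).

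The shift took in a large part of the transcriptome. Replicate 2 was above both other replicates in each of the 3 lines for 4957 of 22198 genes tested (22.3%) and below both for 5153 (23.2%). The edgeR fit with the line as a block put 8085 genes (36.4%) past an adjusted p of 0.05, 3844 of them higher (17.3%) and 4241 lower (19.1%), which repeats the values that chose the libraries. The log2 shifts of single genes in any 2 of the 3 lines, which share no library, correlated at a Pearson r of 0.53 to 0.56 over the 22198 genes. This r is a description across genes, which share length, base composition and depth.

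Sequences from opposite ends of the shift show how unlike the affected genes were. The coding sequence of RPL41 is shown because it is a very short reading frame among the lowest genes, and the start sites of ribosomal protein genes because many share a pyrimidine run at the first base. The introns are shown because 6 of the highest 8 genes with a mean of at least 10 CPM in these lines were GC-rich and had short introns. RPL41, on hg38 chr12:56116788-56117524 on the plus strand, is read from 3 coding segments that join to 78 bases, and the capitals mark its start and stop codons.
RPL41: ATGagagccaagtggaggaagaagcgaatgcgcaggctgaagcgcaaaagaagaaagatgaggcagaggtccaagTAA
The windows of 30 bases around the annotated starts of 4 ribosomal protein genes begin 10 bases before the start. They come from RefSeq promoters of GRCh38.p14, with the unbroken run of C or T from the first transcribed base in capitals. The windows of RPS3, with a run of 11 bases, and of RPL10, with a run of 0, were also read and are not printed.
RPS6 (chr9:19380217-19380246, minus strand): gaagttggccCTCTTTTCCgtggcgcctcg
RPS3A (chr4:151099618-151099647, plus strand): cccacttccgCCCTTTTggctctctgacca
RPL41 (chr12:56116623-56116652, plus strand): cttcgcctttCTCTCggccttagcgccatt
RPS18 (chr6:33272065-33272094, plus strand): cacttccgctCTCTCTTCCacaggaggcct
The introns, read from hg38 and 5′ to 3′ on the gene's strand, are those nearest the median intron length of their gene, with the first and last 2 bases, the splice sites, in capitals.
MAMDC4 intron 12 of 26 (chr9:136855620-136855731, plus strand, 65.2% GC): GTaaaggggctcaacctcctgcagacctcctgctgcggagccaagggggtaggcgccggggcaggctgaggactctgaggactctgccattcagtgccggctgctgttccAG
CCDC78 intron 4 of 13 (chr16:725294-725412, minus strand, 59.7% GC): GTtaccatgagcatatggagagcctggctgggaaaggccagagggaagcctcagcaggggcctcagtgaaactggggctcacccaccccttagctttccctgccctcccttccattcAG
AMH intron 2 of 4 (chr19:2250480-2250651, plus strand, 65.7% GC): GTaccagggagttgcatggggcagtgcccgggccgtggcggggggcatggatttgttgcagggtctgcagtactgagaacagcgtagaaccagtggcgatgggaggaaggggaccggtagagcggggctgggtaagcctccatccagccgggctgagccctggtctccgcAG

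A C at the annotated start followed by at least 4 more C or T bases was found in 43 of the 64 ribosomal protein promoters in the table (67.2%). The same run stood in 4.98% of the 13203 tested genes with a promoter there and in 4.04% of all 27305 promoters. Among the mitochondrial ribosomal protein genes, which were also lower in replicate 2, it stood in 5 of 69 (7.25%), and among the small respiratory chain subunits, lower as well, in 8 of 39 (20.5%). With a run allowed to begin within 5 bases of the annotated start, the shares were 79.7% for cytosolic ribosomal proteins and 21.7% for mitochondrial ones. They were 41.0% for respiratory chain subunits and 22.3% for the tested genes. A link between the run and the shift was not tested. The match is to letters at 1 annotated start per gene and describes no measured start site.

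Cytosolic ribosomal protein mRNAs were the lowest group. RPS6, a protein of the small ribosomal subunit and the classic substrate of S6 kinases, was at 144 CPM (scaled by TMM over the 16 libraries) in replicate 2 of shAjuba2 against 476 and 531 in replicates 1 and 3. It was at 278 in replicate 2 of Control against 794 and 530, and at 350 in AjubaOE against 1114 and 636. Replicate 2 was the lowest library of each line without overlap, and the fitted log2 difference was -1.45 ± 0.17 (SE, n = 3 against 6).

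RPS3A, another small subunit protein, was the lowest of the protein-coding genes named by rule (log2 -1.59 ± 0.20). Its level was 78.0 CPM in replicate 2 of shAjuba2 (191 and 235 in the others), 87.9 in Control (362 and 211) and 118 in AjubaOE (492 and 244). RPL41, the protein of 25 residues encoded by the sequence above, was at 191 CPM in shAjuba2 (617 and 737), 301 in Control (783 and 730) and 453 in AjubaOE (1220 and 860), a log2 difference of -1.44 ± 0.13. In all 3 lines replicate 2 was outside the range of its partners for both genes.

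**Figure D1:**
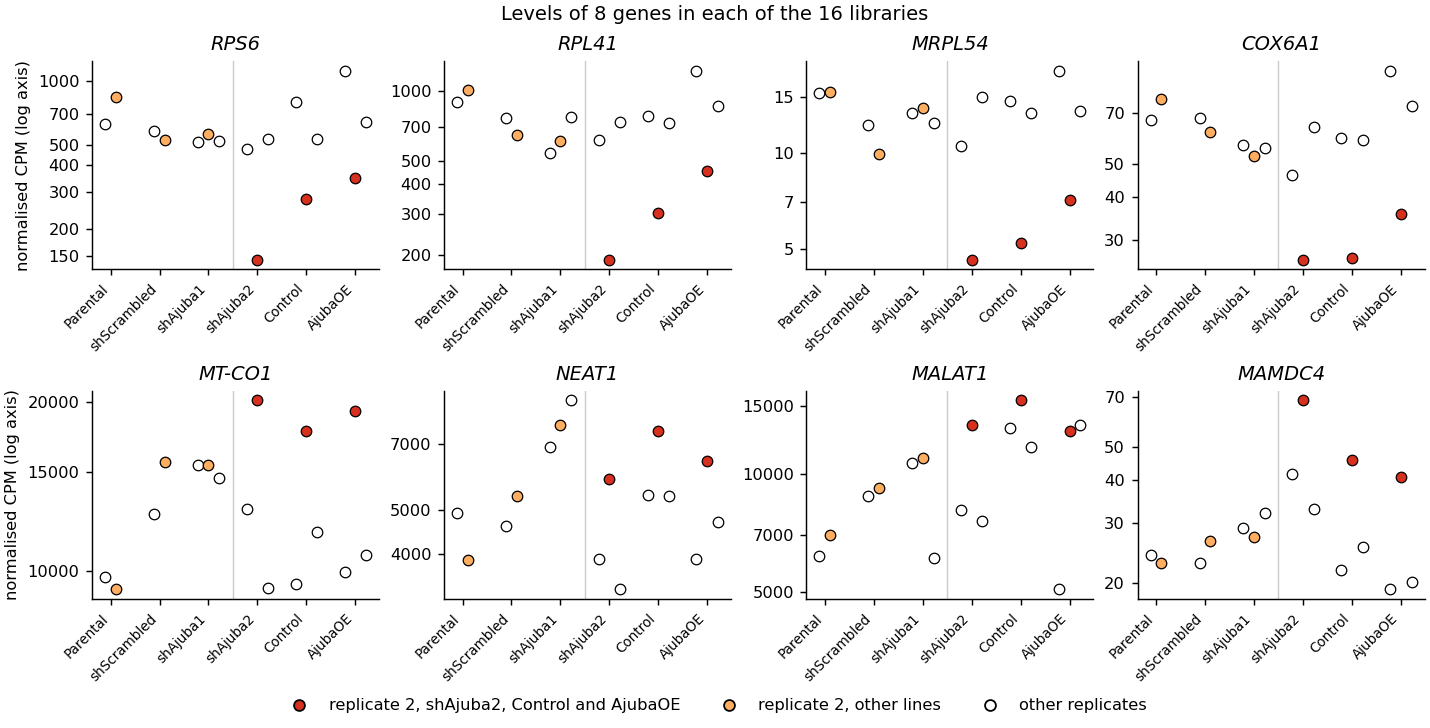
Normalised CPM on a log axis for 8 genes in each of the 16 libraries, with 1 point per library and replicate 2 coloured. In shAjuba2, Control and AjubaOE (right of the grey line) replicate 2 was lowest for RPS6, RPL41, MRPL54 and COX6A1 and highest for MT-CO1, NEAT1 and MAMDC4, whereas MALAT1 of AjubaOE replicate 2 (12948) lay below that of replicate 3 (13359).

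Of 85 cytosolic ribosomal protein genes in the file, 81 passed the filter on low counts. For 78 of them replicate 2 was below both other replicates in each line, beside 23.2% of all genes tested. The median log2 difference was -0.89, with line medians of -1.06 in shAjuba2, -0.82 in Control and -0.74 in AjubaOE. RPL10 (log2 -0.76 ± 0.09) and RPS3 (-1.17 ± 0.11) were among the most abundant members.

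The group's share of all counts was 1.38% in replicate 2 of shAjuba2 against 2.82% and 3.37%, 1.81% in Control against 3.35% and 3.10%, and 2.29% in AjubaOE against 4.60% and 3.42%. The 3 lowest shares of the series were thus those of the 3 libraries. RPL36A, chosen here after its values were seen because it was the sole member higher in every line, had a log2 difference of 0.37 ± 0.09. The processed pseudogene RPSAP19 (log2 -1.63 ± 0.14) was lowest of all genes named by rule, but its reads cannot be told apart from those of near-identical ribosomal protein transcripts.

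Nuclear-encoded parts of the mitochondrion were lower as well. MRPL54, a protein of the large mitochondrial ribosomal subunit, was at 4.63 CPM in replicate 2 of shAjuba2 (10.5 and 15.0 in the others), 5.22 in Control (14.6 and 13.4) and 7.15 in AjubaOE (18.2 and 13.6), a log2 difference of -1.34 ± 0.13. COX6A1, a small subunit of cytochrome c oxidase, was at 26.2 CPM in shAjuba2 (46.4 and 63.8), 26.6 in Control (59.3 and 58.5) and 35.6 in AjubaOE (93.3 and 73.7), a log2 difference of -1.15 ± 0.10. Replicate 2 did not overlap its partners in any of these 6 sets.

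Of 78 mitochondrial ribosomal protein genes, 66 were lower and 2 higher in replicate 2 of every line, with a median of -0.57 (-0.66, -0.58 and -0.51 in shAjuba2, Control and AjubaOE). The lower ones were 84.6% of the list, beside 23.2% of all genes tested. MRPL13 (-1.09 ± 0.13) and MRPL51 (-0.92 ± 0.09) were among the lower, and MRPL53 (0.50 ± 0.10) and MRPS25 (0.19 ± 0.06) were the 2 higher, named after their values were seen. Of 48 small nuclear-encoded subunits of the respiratory chain, 43 (89.6%) were lower and 1 higher, with a median of -0.79 (-0.91, -0.78 and -0.64). NDUFA4 was at -1.09 ± 0.15 and the ATP synthase subunit ATP5F1E at -0.83 ± 0.10. NDUFA7 was the 1 higher member (0.60 ± 0.15), again named after its values were seen, at a mean of only 1.16 CPM.

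ROMO1, a short mitochondrial inner membrane protein, and PRDX4, a peroxiredoxin of the endoplasmic reticulum, stood with these genes in the lowest 8. Their log2 differences were -1.29 ± 0.18 and -1.41 ± 0.15, and ROMO1 in shAjuba2 was at 10.9 CPM in replicate 2 against 34.5 and 45.3.

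RNAs of the mitochondrial genome went the other way. MT-CO1, the catalytic core of cytochrome c oxidase, was at 20132 CPM in replicate 2 of shAjuba2 against 12883 and 9302, at 17736 in Control against 9449 and 11728, and at 19265 in AjubaOE against 9931 and 10667. The log2 difference was 0.84 ± 0.11, and COX6A1, a subunit of the same enzyme made from a nuclear gene, had the opposite sign in the same libraries. All 13 mitochondrial mRNAs had a positive difference (median 0.72, and 0.73, 0.66 and 0.76 in shAjuba2, Control and AjubaOE), and 12 were higher in every line, beside 22.3% of all genes tested. MT-ATP6 (0.87 ± 0.11), MT-CO2 (0.85 ± 0.11) and MT-CO3 (0.79 ± 0.11) were close to MT-CO1.

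MT-ND5 differed less (0.23 ± 0.08), and MT-ND6, the member that did not separate in every line, was at 0.11 ± 0.08. The mitochondrial rRNA genes MT-RNR1 and MT-RNR2 were higher in every line too (0.82 ± 0.26 and 0.70 ± 0.19), with a wide spread in AjubaOE, where MT-RNR1 was at 12692, 59702 and 40896 CPM in replicates 1, 2 and 3. Of 21 mitochondrial tRNA genes measured, 12 (57.1%) were higher and none lower in every line (median 0.53). MT-TQ (1.00 ± 0.35) and MT-TV (0.99 ± 0.23) had the highest differences of all genes named by rule at 1.28 to 7.85 CPM in the 3 lines, and MT-TQ overlapped its partners. MT-TL1, with more counts, was at 0.95 ± 0.16, though a polyadenylated RNA library counts few mature tRNAs.

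All genes of the mitochondrial genome together took 21.2% of the counts in replicate 2 of shAjuba2 (14.0% and 11.5% in the others), 18.5% in Control (12.4% and 14.1%) and 21.2% in AjubaOE (9.66% and 14.9%). In the 13 other libraries the share was 9.66% to 17.2%, so the 3 libraries held the highest shares of the series.

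**Figure D2:**
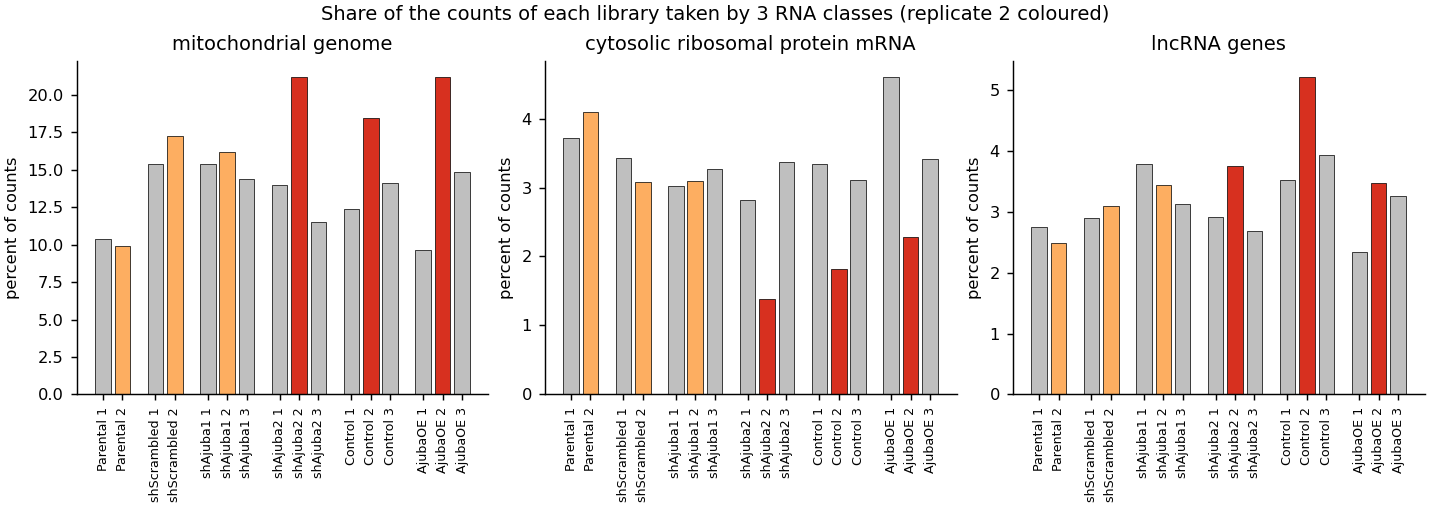
Percent of the counts of each of the 16 libraries taken by all genes of the mitochondrial genome, by cytosolic ribosomal protein genes and by genes annotated as lncRNA, with 1 bar per library and axes from 0. The red bars of replicate 2 in shAjuba2, Control and AjubaOE reach 21.2%, 18.5% and 21.2% for the mitochondrial genome and 1.38%, 1.81% and 2.29% for ribosomal proteins.

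Nuclear RNAs were higher, with less uniformity than the mitochondrial ones. NEAT1 was at 5882 CPM in replicate 2 of shAjuba2 (3903 and 3343), 7491 in Control (5422 and 5379) and 6442 in AjubaOE (3914 and 4704), a log2 difference of 0.59 ± 0.09. MALAT1 was at 13392 CPM in shAjuba2 (8124 and 7623) and 15482 in Control (13114 and 11745). In AjubaOE, however, MALAT1 was at 12948 in replicate 2, 5085 in replicate 1 and 13359 in replicate 3, so the groups overlapped, and its difference of 0.53 ± 0.21 was not seen in every line.

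Of 12 nuclear-retained lncRNAs measured, 6 were higher and 1 lower in replicate 2 of every line (median 0.32, and 0.38, 0.15 and 0.37 in shAjuba2, Control and AjubaOE). These were 50.0% and 8.33% of the list, beside 22.3% and 23.2% of all genes tested. TUG1 was at 0.32 ± 0.09, and at 0.15 without replicate 2 of shAjuba2. JPX was the lower one, at -0.14 ± 0.06. Among 15 lncRNAs known from the cytoplasm or as hosts of small nucleolar RNAs, 7 were lower and 2 higher (median -0.16), with SNHG29 at -0.60 ± 0.10, NORAD at -0.14 ± 0.07 and SNHG1 at 0.30 ± 0.06.

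The 4458 genes annotated as lncRNA had a median of 0.23, with 1137 higher and 205 lower in every line (25.5% and 4.60%). Over all genes tested the shares were 22.3% and 23.2%, so the share higher was near that of all genes and the share lower was not. Their share of the counts was 3.76% in replicate 2 of shAjuba2 (2.91% and 2.69%), 5.22% in Control (3.52% and 3.93%) and 3.47% in AjubaOE (2.35% and 3.26%). It was 3.79% in replicate 1 of shAjuba1, so the level itself did not set the chosen libraries apart from all others. Of 24 mRNAs of splicing factors or with detained introns, which are held in the nucleus until spliced, 17 (70.8%) were higher and 1, SRSF3, was lower (-0.57 ± 0.10). CCNL2 (0.66 ± 0.07) and DDX39B (0.65 ± 0.07) differed most, and OGT, the enzyme that adds O-GlcNAc to proteins, was at 0.49 ± 0.08.

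Genes of small structural RNAs were mostly higher, with few counts behind them. Only 118 of 550 snoRNA and scaRNA genes in the file were measured (median 0.37), and 42 were higher and 2 lower in every line (35.6% and 1.69%, beside 22.3% and 23.2% of all genes tested). SCARNA7 was at 123 CPM in replicate 2 of shAjuba2 (57.4 and 45.8), 85.5 in Control (63.4 and 43.0) and 68.6 in AjubaOE (26.6 and 60.9). Its log2 difference was 0.88 ± 0.20, and that of SCARNA9, with more counts (68.2 to 247 CPM over the series), was 0.64 ± 0.14.

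The 91 snRNA and 139 miRNA genes measured had medians of 0.35 and 0.44. In every line 20.9% of the snRNA genes were higher and 1.1% lower, and 25.2% of the miRNA genes were higher and 0.719% lower. Over all genes tested the shares were 22.3% and 23.2%, so the shares higher were near that of all genes and the shares lower were not. Many such genes lie inside longer transcripts, and reads of host and guest cannot be told apart in these counts. The 5 measured RNA polymerase III and small structural RNAs showed no common direction, with line medians of -0.18, -0.35 and 0.85.

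**Figure D3:**
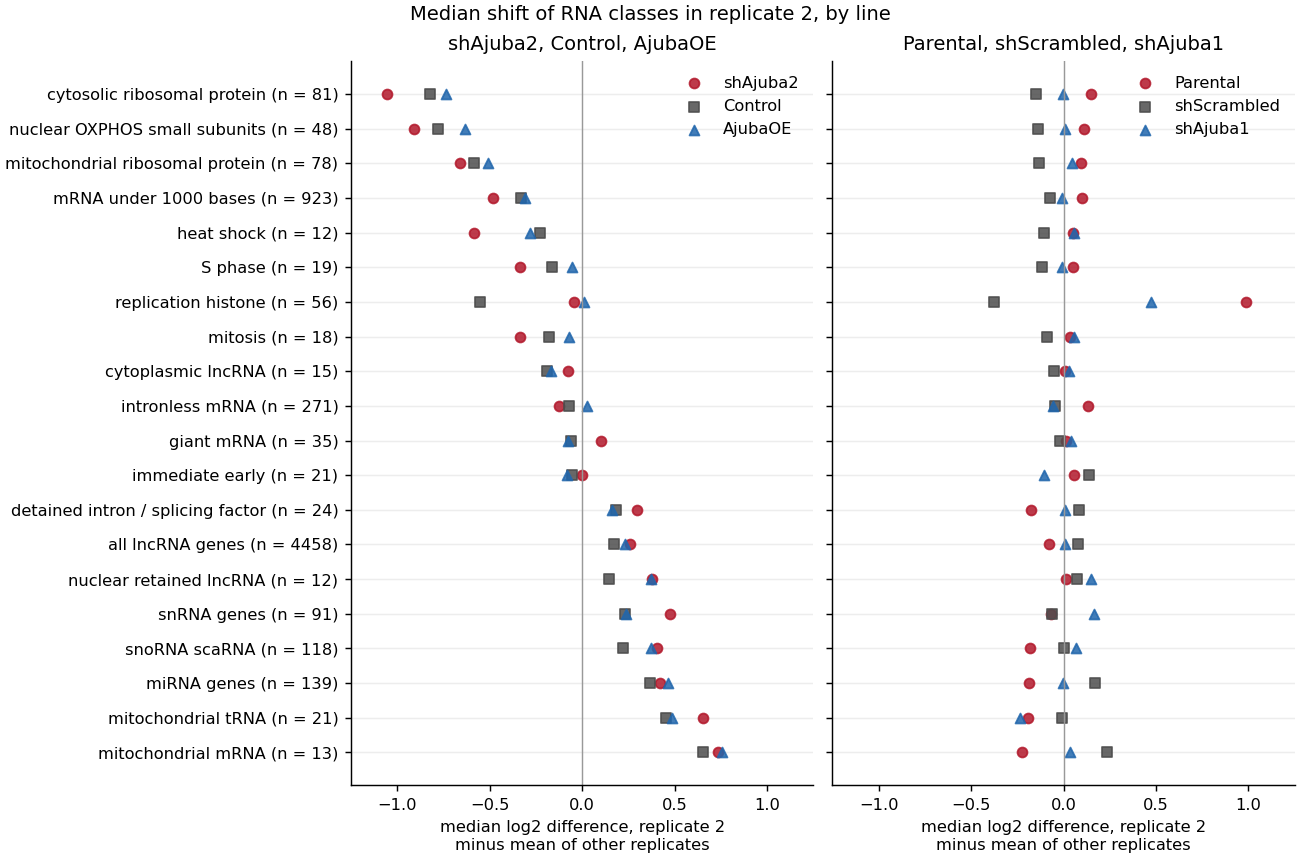
Median log2 difference of replicate 2 from the mean of the other replicates for 20 RNA classes (rows, with the number of genes), 1 point per line, in the 3 lines chosen (left) and in the other lines (right). On the left ribosomal protein mRNAs lie at -1.06 to -0.74 and mitochondrial mRNAs at 0.66 to 0.76, and on the right the same classes lie at -0.15 to 0.15 and -0.23 to 0.23.

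Short mRNAs were lower, whether or not they belonged to the groups above. The 923 coding genes with a mature transcript under 1000 bases had a median of -0.36 (-0.48, -0.33 and -0.31 in shAjuba2, Control and AjubaOE), and 458 were lower and 97 higher in every line (49.6% and 10.5%, beside 23.2% and 22.3% of all genes tested). Without ribosomal proteins and respiratory chain subunits the median over 815 genes was -0.30. The medians went from -0.41 under 500 bases to -0.35, -0.11 and -0.03 in the next bins and stayed at -0.04 above 4000 bases. The 35 longest mRNAs listed had a median of -0.02, with 3 higher and 4 lower, and named members were HUWE1 (-0.02 ± 0.07), AHNAK (-0.10 ± 0.08) and KMT2D (0.29 ± 0.07, and 0.18 without replicate 2 of shAjuba2).

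The absence of introns did not mark the lower mRNAs. The 271 measured coding genes with 1 exon in every annotated transcript had a median of -0.09, with 46 lower and 21 higher in every line (17.0% and 7.75%, both under the 23.2% and 22.3% of all genes tested). Under 1000 bases, the 861 spliced genes had a median of -0.40 and the 62 intronless genes one of -0.12, and these differed widely between lines (0.00, -0.38 and 0.11). A list of 24 single-exon or near-intronless genes had a median of -0.12 that was 0.0030 without replicate 2 of shAjuba2, with 5 lower and 2 higher, among them RHOB, a small GTPase, at -0.23 ± 0.07 and PMAIP1, a BH3-only protein whose annotation does hold introns, at -0.49 ± 0.10.

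Replication-dependent histone genes, which are intronless and largely lack a poly(A) tail, varied between lines. The 56 measured had a median of -0.26, which was -0.096 without replicate 2 of Control and -0.12 without replicate 3 of AjubaOE, and the line medians were -0.04, -0.55 and 0.01. H1-2 (-0.90 ± 0.14) and H2BC12 (-0.69 ± 0.12) were lower, and 46 members had a negative and 10 a positive difference. Replicate 2 of lines outside the 3 also moved, with medians of 0.99 in Parental, -0.38 in shScrambled and 0.47 in shAjuba1, so these genes did not mark the 3 libraries.

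The shift also varied with base composition across coding genes. Medians went from -0.24 under 40% GC to 0.26 over 60% GC, with -0.17, -0.10, 0.00 and 0.11 between. By median intron length they went from 0.27 under 200 bases to -0.16 over 5000 bases. The Spearman correlation of the log2 difference across genes was 0.47 with GC content (n = 14623), -0.32 with median intron length (n = 14270), 0.22 with exon number and 0.12 with transcript length. These values describe properties that vary together along the genome.

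Length and GC content were also read together. Coding genes under 45% GC and under 1000 bases had a median of -0.65 (n = 139) and those under 45% GC and over 4000 bases one of -0.14 (n = 2679). Above 55% GC the medians were -0.18 under 1000 bases and 0.26 over 4000 bases. The 1868 genes with over 55% GC and a median intron under 500 bases had a median of 0.30, with 1044 higher and 182 lower in every line (55.9% and 9.74%).

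The mean GC content of the counted genes, weighted by their counts, was 50.0% in replicate 2 of shAjuba2 against 49.3% and 49.2%. It was 49.4% in Control against 48.0% and 48.7%, and 49.5% in AjubaOE against 48.5% and 48.6%. The other lines ranged from 48.5% to 50.04%, so the level itself did not set the 3 libraries apart from all others.

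**Figure D4:**
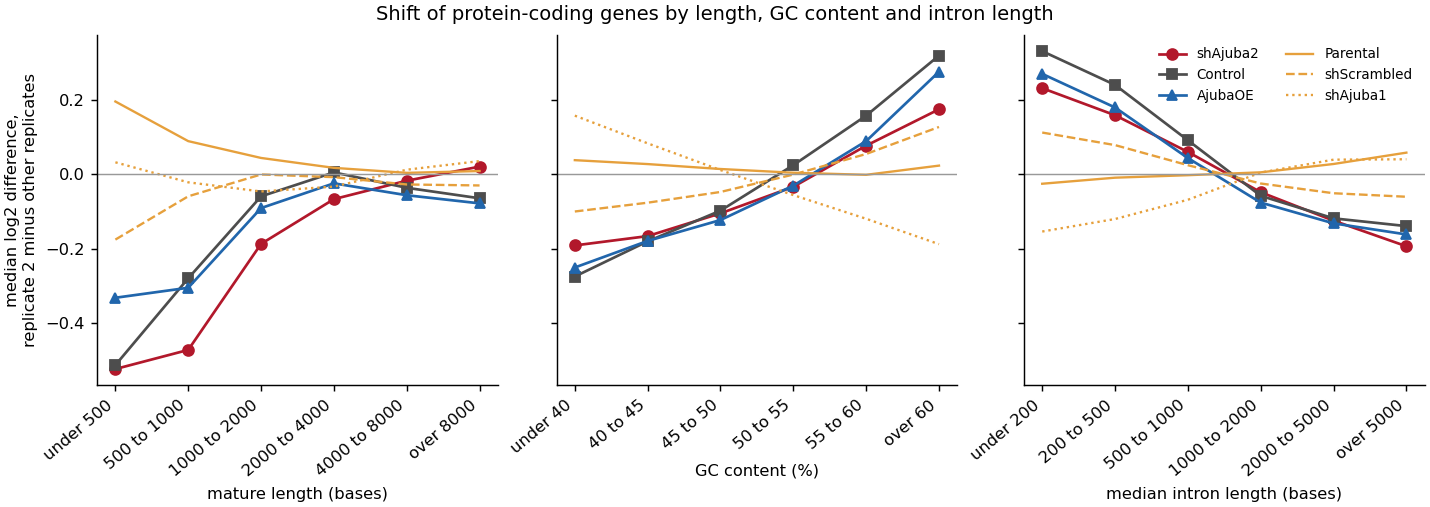
Median log2 difference of replicate 2 from its partners in bins of mature transcript length, GC content and median intron length of protein-coding genes, 1 line per cell line. The 3 chosen lines run together from below -0.3 in the shortest bin and from about -0.2 under 40% GC to above 0.1 over 60% GC, while Parental, shScrambled and shAjuba1 (orange) run in different directions.

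Of the highest 8 genes with a mean of at least 10 CPM, 6 were GC-rich genes with short introns. MAMDC4, a gene of 27 exons with a transcript of 66.8% GC, was at 68.3 CPM in replicate 2 of shAjuba2 (41.6 and 32.9), 45.8 in Control (21.9 and 25.5) and 40.9 in AjubaOE (19.2 and 20.2), a log2 difference of 0.96 ± 0.08. CCDC78, a coiled-coil protein of centriole amplification, was at 47.0 CPM in shAjuba2 (26.9 and 23.2), 31.2 in Control (16.9 and 18.0) and 34.4 in AjubaOE (16.3 and 17.4), a log2 difference of 0.93 ± 0.07. AMH, the anti-Müllerian hormone gene, was at 91.9 CPM in shAjuba2 (56.9 and 52.5), 71.1 in Control (35.4 and 42.2) and 59.6 in AjubaOE (30.9 and 27.2). Replicate 2 was the highest library of its line for each of the 3 genes.

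RHPN1 (0.94 ± 0.08), the antisense gene PTOV1-AS2 (0.89 ± 0.08) and the read-through gene RTEL1-TNFRSF6B (0.90 ± 0.06) completed the highest 8 with MT-TL1 and SCARNA7, which have no intron and transcripts of 38.7% and 37.3% GC. Reads of PTOV1-AS2 and of the read-through gene may belong to the genes they overlap, since the strand setting of the counting is not given in the sources used here. Among 442 zinc finger genes, mostly of the KRAB family, 102 were higher (23.1%) and 54 lower (12.2%) in every line. Over all genes tested the shares were 22.3% and 23.2%, so the share higher was near that of all genes and the share lower was not. The median was 0.04, the same as over all genes. ZNF692 (0.77 ± 0.07) and ZNF276 (0.74 ± 0.07) were the most distant of those with a mean of at least 1 CPM.

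Lists of cellular states moved little or downwards. The shares over all genes tested, for reading the counts of these lists, were 23.2% lower and 22.3% higher in every line. Over protein-coding genes alone, the kind these lists hold, they were 32.6% lower and 21.3% higher. Heat shock genes were lower (8 of 12 in every line, none higher, median -0.32), with the chaperone HSPA8 at 778 CPM in replicate 2 of shAjuba2 against 1281 and 1548. S phase genes had a median of -0.28 (9 of 19 lower, 2 higher, PCNA -0.83 ± 0.10) and mitosis genes one of -0.18 (11 of 18 lower, none higher, BIRC5 -0.71 ± 0.08 and CCNB2 -0.70 ± 0.08). Without replicate 2 of shAjuba2 the S phase median was -0.10. Hypoxia targets had a median of -0.22 (8 of 14 lower, 3 higher), with the glycolytic enzymes PGK1 at -0.83 ± 0.11 and LDHA at -0.80 ± 0.10.

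Genes of the integrated stress response had a median of -0.18 (6 of 16 lower, none higher), with the serine synthesis enzyme PSAT1 at -0.81 ± 0.09. Immediate early genes had a median of -0.04, with 2 higher and 1 lower of 21. Colon epithelial markers had a median of -0.26, with 5 of 11 lower and none higher, among them KRT8 (-0.39 ± 0.10) and EPCAM (-0.47 ± 0.09). This median was -0.052 without replicate 2 of shAjuba2 and -0.13 without replicate 3 of that line, and KRT8 was at -0.24 without the former. Of 16 markers of fibroblasts, muscle, immune and other cells, 11 were measured, with a median of 0.12, 3 lower and 2 higher in every line. The median turned negative without replicate 2 or 3 of Control (-0.10 and -0.034). Their summed share of the counts was 0.00276% to 0.00528% over the 16 libraries and 0.00496%, 0.00411% and 0.00282% in replicate 2 of shAjuba2, Control and AjubaOE. PTPRC of leukocytes had at most 3 counts in any library, CDH5 of endothelium and DCN of fibroblasts at most 1. The 5 measured olfactory receptor genes had a median of 0.43 and ranged from -0.88 to 0.47.

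Replicate 2 of the remaining lines was not among the libraries chosen by their values, so its values describe those lines and are no independent test. In Parental, shScrambled and shAjuba1, edgeR's quasi-likelihood test with the line as a block called 0 of 21695 genes at an adjusted p of 0.05 (0%). At an unadjusted p under 0.05 there were 265 genes (1.22%), and DESeq2 also called 0. RPS6 was at 836 CPM in replicate 2 of Parental against 622, at 527 in shScrambled against 579, and at 563 in shAjuba1 against 514 and 520. The log2 difference was 0.14 with a 95% interval of -0.06 to 0.34, and the interval of MT-CO1 was -0.09 to 0.27 and that of NEAT1 -0.27 to 0.18. None of these intervals reached the difference of the same gene in the 3 chosen lines. The interval of MALAT1 (difference 0.24, -0.07 to 0.54) did reach its difference of 0.53 there. Because the 3 lines were chosen for their shift, this contrast follows in part from the choice and is no test.

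Ribosomal protein mRNAs had medians of 0.15, -0.15 and 0.00 in Parental, shScrambled and shAjuba1, and mitochondrial mRNAs of -0.23, 0.23 and 0.04, with no common direction. In both classes shScrambled had the sign of the chosen lines at smaller size, and Parental had the opposite sign. For small respiratory chain subunits, mitochondrial ribosomal proteins and all lncRNA genes, shScrambled had -0.14, -0.13 and 0.08. Parental had 0.11, 0.09 and -0.08 for the same classes, and shAjuba1 had 0.01, 0.04 and 0.01. Some other classes had the same sign in all of these lines. The medians were 0.26, 0.05 and 0.39 for the mitochondrial rRNA genes, 0.01, 0.07 and 0.15 for nuclear-retained lncRNAs, and -0.19, -0.01 and -0.24 for mitochondrial tRNA genes. The Spearman correlation of the log2 difference with GC content was -0.33 in these lines, opposite in sign to that in the 3 chosen lines. In shAjuba1 the median was 0.16 under 40% GC and -0.19 over 60% GC, whereas in shScrambled it was -0.10 and 0.13.

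A difference of the shift between shAjuba2, Control and AjubaOE was tested as an interaction, which is fitted apart from the mean shift. The libraries were chosen for a shift that the 3 lines share, so a low number of calls is not independent of that choice. edgeR called 0 of 22198 genes (0%), with 466 at an unadjusted p under 0.05 (2.10%) and a smallest adjusted p of 0.27. DESeq2 called 2. Among the lists, 7 of 81 ribosomal protein genes and 0 of 13 mitochondrial mRNAs had an unadjusted p under 0.05. RPS6 had shifts of -1.80, -1.23 and -1.27 in shAjuba2, Control and AjubaOE, and MT-CO1 had 0.88, 0.75 and 0.90, neither of them called. With 3 residual degrees of freedom, equal shifts are not shown by these values.

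The comparisons of lines that the study was built for contain the 3 libraries. These were picked for lying apart from their lines, so leaving them out tends to narrow the spread and add calls. The calls without them are therefore given as a description and not as a test. Between AjubaOE and Control, where both groups held one, edgeR called 1147 of 21140 genes (5.43%), 506 higher (2.39%) and 641 lower (3.03%), and without replicate 2 of both lines it called 1701 of 20788 (8.18%), 875 higher (4.21%) and 826 lower (3.97%). AJUBA was higher by a log2 difference of 2.56 ± 0.11 with all libraries (adjusted p = 7.7e-05) and by 2.69 ± 0.10 without replicate 2 (2.4e-06). Ribosomal protein mRNAs had a median of 0.35 both with and without replicate 2, but none of the 81 was called with all libraries and 6 were called higher without replicate 2. For AjubaOE replicates 1, 2 and 3, each set against the mean of the Control libraries, the median was 0.86, -0.13 and 0.39. The fitted median ran from 0.12 without replicate 1 of AjubaOE to 0.59 without its replicate 2 when 1 library was left out. It was 0.12 also without replicate 2 of Control. The median of replication histones was -0.11 with and -0.26 without replicate 2, and it turned positive without replicate 1 of Control or of AjubaOE (both 0.12). COX6A1 was at 0.47 ± 0.39 (adjusted p = 0.60) and at 0.48 ± 0.12 (0.037), and between 0.18 and 0.78 with 1 library left out.

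Between shAjuba2 and shScrambled, where 1 group held such a library, edgeR called 1713 of 22446 genes (7.63%), 717 higher (3.19%) and 996 lower (4.44%). Without replicate 2 of shAjuba2 it called 4983 of 21969 (22.7%), 2395 higher (10.9%) and 2588 lower (11.8%). Class medians moved too. Ribosomal protein mRNAs went from -0.39 to -0.12 (-0.67 without replicate 3), small respiratory chain subunits from -0.36 to -0.12 and mitochondrial ribosomal proteins from -0.25 to -0.05. Mitochondrial mRNAs went from -0.22 with 0 of 13 called to -0.48 with 9 called lower, and mitochondrial tRNA genes from -0.60 with 5 of 21 called lower to -0.83 with 19. Leaving out any 1 library gave medians of -0.48 to -0.042 for mitochondrial mRNAs, the latter without replicate 3 of shAjuba2.

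Single genes crossed the threshold in the same comparison, with the same limit from the choice of the library left out. AJUBA itself was at -0.46 ± 0.13 (adjusted p = 0.077) with all libraries and at -0.55 ± 0.09 (adjusted p = 4.8e-04) without replicate 2. NEAT1 was at -0.20 ± 0.25 (0.65) and at -0.47 ± 0.13 (0.016), and MAMDC4 at 0.93 ± 0.29 (0.092) and at 0.58 ± 0.12 (0.0026). Replication histones had medians of 0.78 and 0.81 (0.55 to 0.96 with any 1 library left out) and were called higher in 11 of 55 and 40 of 55 genes.

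**Figure D5:**
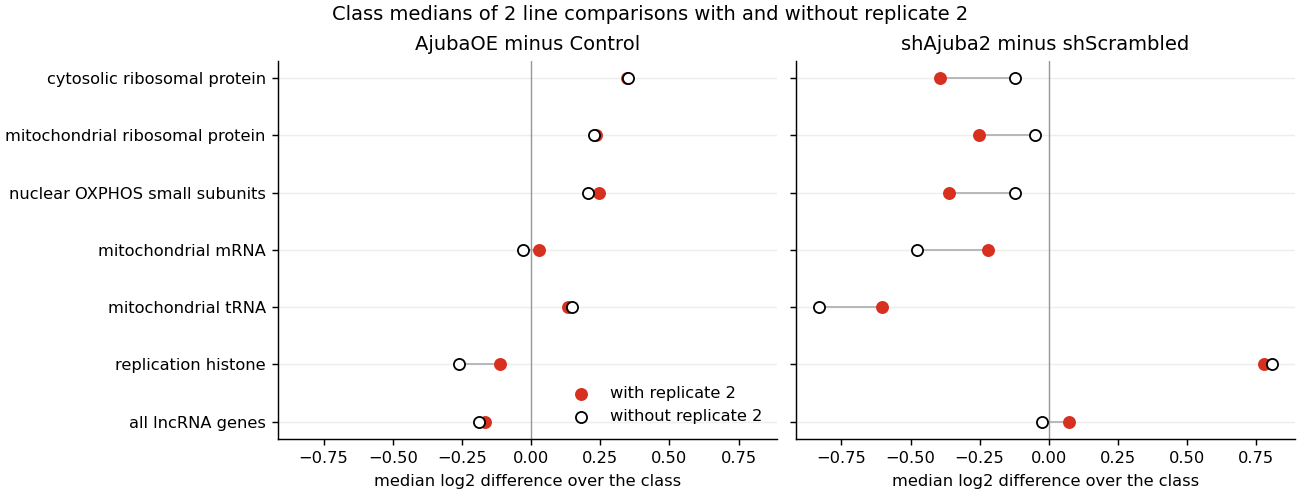
Median log2 difference over 7 RNA classes for AjubaOE minus Control and shAjuba2 minus shScrambled, with all libraries (filled) and without replicate 2 of the 3 lines (open). In the left panel the points lie close together (0.35 and 0.35 for ribosomal proteins) except for histones (-0.11 and -0.26), and in the right panel ribosomal proteins move from -0.39 to -0.12 and mitochondrial mRNAs from -0.22 to -0.48.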

How the data were processed

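RNA of SW480 cells was sequenced as paired-end stranded mRNA libraries. The authors aligned reads to GRCh38 with HISAT2 and deposited 1 table of unnormalised featureCounts read counts per gene. Tool versions, annotation release and strand setting are not given in the sources used here. The table holds 66023 genes, of which 56434 (99.8% of counts) matched GENCODE release 44, the source of symbols, types, lengths, GC content and introns. Libraries held 30132396 to 69684675 counts. The median chi-square distance between replicates of 1 line was 1.87 to 14.3 relative to counting noise, and counting error weighs more for genes with few counts.

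Groups came from the sample labels. Genes were filtered with filterByExpr, scaled by TMM and tested with edgeR 4.0.16 (quasi-likelihood test, Benjamini-Hochberg adjusted p under 0.05, R 4.3.3). The fits were replicate 2 with the line as a block in the 3 chosen lines and in the 3 others, the interaction of replicate 2 with line, and 2 comparisons of lines. Gene values are log2 differences ± SE from the fit. Line shifts use log2 CPM with a prior count of 2. A gene was higher or lower in every line when replicate 2 lay above or below both partners in all 3 lines. Fits were tested on simulated data with log2 changes of 1 in either direction. Counts were drawn at a fixed dispersion of 0.01 without the broad replicate 2 shift of the real libraries. The recovery rates that follow therefore describe that setting and not these libraries. The interaction fit recovered 35.4% of the changed genes, and the other fits recovered 80.4% to 90.9%. False calls made up 2.82% to 11.46% of all calls, most in AjubaOE against Control. Alternatives were DESeq2 1.42.0, its size factors, no scaling, no filter, thinning, removal of mitochondrial genes, a replicate block, and leaving out libraries.

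Named genes were the 8 highest and 8 lowest (own symbol, mean of at least 10 CPM, same direction in every line), per list the 3 most abundant and the 2 with the largest difference at a mean of at least 1 CPM, and MALAT1, NEAT1, RPS6 and AJUBA. Of these, the text prints a selection. Libraries, lists and genes were chosen with earlier results of these data known. The 3 chosen libraries were picked by their values, so no test of their shift is offered.

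Same-numbered replicates were not treated as pairs: deviations of AjubaOE and Control correlated at 0.14, 0.56 and -0.05 for numbers 1, 2 and 3, those of shAjuba2 and shScrambled at 0.08 and 0.21, and no label ties the numbers to a shared culture or day. The deposited table was used whole, with 0 columns left unassigned. LINC01578 and RN7SK of the lists were not matched.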

Additional observations from a re-analysis of the deposited data

Results flagged for a closer look

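Mitochondrial tRNA genes were flagged because replicate 2 moved one way in every chosen line and the opposite way in every other line. The median log2 difference over 21 genes was 0.66, 0.45 and 0.48 in shAjuba2, Control and AjubaOE, and -0.19, -0.01 and -0.24 in Parental, shScrambled and shAjuba1. The fitted median in the latter was -0.18. The difference between the sets of lines was not tested, and the shScrambled value is close to 0.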

How the results depend on the processing

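The count of genes past the threshold in the chosen contrast was 7706 to 8122 under the other tools, scalings, filter, thinning and removal of mitochondrial genes, and 5778 to 8098 with 1 library left out. With every gene of at least 1 count kept, the lncRNA median was 0.15, that of introns under 200 bases 0.22 and that of introns over 5000 bases -0.20, which was -0.19 without scaling. Leaving out 1 library gave -0.65 to -0.53 for mitochondrial ribosomal proteins, 0.67 to 0.78 for mitochondrial mRNAs and -0.14 to -0.010 for intronless mRNAs, the last weakest without replicate 2 of shAjuba2. Of 848 recomputed values of single genes 825 moved by less than the spread between lines, 23 moved by more and 0 changed sign while called, and 396 of 417 class medians moved by less.

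In the other lines, keeping every gene with a count gave 10 calls, and leaving out 1 library 0 to 2, both at 2 when shScrambled was left with a single library whose spread is taken from the remaining lines. There NEAT1 turned positive without Parental replicate 1 (0.081), without Parental replicate 2 (0.081) and without shAjuba1 replicate 3 (0.013), within a range of -0.16 to 0.081 over the libraries left out. MT-CO1 turned negative without either shScrambled library (-0.011), and none of these values was called. The interaction gave 47 calls with every gene kept, 2 with DESeq2 and 0 to 12 with 1 library left out, 11 without AjubaOE replicate 1 and 12 without AjubaOE replicate 3.

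AjubaOE against Control gave 1763 calls with DESeq2 and 412 to 988 with 1 library left out, lowest without Control replicate 3. Without scaling 360 of 1108 calls were higher, beside 506 of 1147. shAjuba2 against shScrambled gave 3210 calls with every gene kept and 182 to 4983 with 1 library left out: 223 and 182 without shScrambled replicates 1 and 2, 492, 4983 and 1385 without shAjuba2 replicates 1, 2 and 3. With the replicate block the counts were 5140 and 5377. The check did not support pairing by number throughout. Replicate 2 of AjubaOE and of Control correlated best with each other, and replicates 1 and 3 did not correlate best with their own number. Replicate 2 of shAjuba2 and of shScrambled also correlated best with each other (0.21). Replicate 1 of shAjuba2 correlated best with replicate 1 of shScrambled, whose own best partner was replicate 3 of shAjuba2. The cause of these changes was not tested. The 2 or 3 libraries per line, replicate numbers without a stated meaning and 1 count table limit what can be read.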
